A study of Mus musculus with 20 samples.

Results

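The genes described here encode the core machinery of autophagy. They were picked by symbol from the 24421 genes of the count table, with earlier results of these data known. The rule took every gene whose symbol began with Atg and a digit, Map1lc3 or Gabarap. It also took the Ulk1 to Ulk4 kinases, Wipi1 and Wipi2, and a named set of Beclin complex genes and cargo receptors. This rule found 40 genes, and all 40 passed the filter on low counts that 12465 genes of the table passed. They were measured by bulk RNA-seq in bone marrow-derived dendritic cells (BMDCs) grown from 5 wild-type C57BL/6 mice, named A to E, in cultures of 8 days that held 40 ng/mL of GM-CSF. Each letter stands in all 4 conditions of 4 hours, which gave 20 libraries. Libraries that share a letter were taken to hold cells of the same mouse. The DMSO Ova group received 5% DMSO and soluble ovalbumin, and the DMSO IC group 5% DMSO and ovalbumin immune complexes, which cross-link Fcγ receptors. The iBET Ova and iBET IC groups received the BET bromodomain inhibitor I-BET151 (iBET) at 3.3 μM in place of the DMSO control, with ovalbumin or with immune complexes. All groups share the wild-type background, the GM-CSF culture and the antigen. The labels state that inhibitor and stimulus were given together and that cells were sorted, whereas the methods place iBET before the stimulus. The methods state that iBET was dissolved in DMSO and then diluted, but not whether its DMSO content was matched to that of the DMSO groups, so an effect of iBET cannot be told apart from a difference in DMSO. GM-CSF cultures of bone marrow hold macrophage-like cells beside dendritic cells, and each library is the RNA of the whole culture or sort. In such bulk RNA, fewer cells of a type and less RNA per cell cannot be told apart.

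In autophagy a cup-shaped membrane grows around cytoplasm, closes into an autophagosome and fuses with a lysosome. The ULK1 kinase complex starts the process, and a class III PI3-kinase complex marks the membrane with the lipid PI3P. ATG9 vesicles, the ATG2 lipid channels and the WIPI proteins that bind PI3P then feed its growth. A pair of ubiquitin-like conjugation systems attaches ATG12 to ATG5, and the ATG8 proteins (LC3 and GABARAP) to the lipid phosphatidylethanolamine. Cargo receptors such as p62 hold ubiquitin with one end and ATG8 with the other. In dendritic cells the pathway carries antigen to lysosomes for presentation on MHC class II, and LC3 is also joined to phagosomes that engage Fc receptors.

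The stretches of sequence below are the 250 bases before the RefSeq start site of 4 of these genes, read 5′ to 3′ on the gene's strand from RefSeq promoter windows on GRCm38.p6. Ulk1 and Ulk2 are shown because they had the largest rises of the kinase genes with iBET, Atg13 as their partner with a smaller rise, and Atg3 because it fell and holds a pair of matches. Capitals mark CACGTG, the core E-box to which the TFEB family binds, or TGACNNNGC, the core of the antioxidant response element, read on either strand. These motifs do not overlap each other in the printed bases.
Ulk1, chr5:110810082-110810331, minus strand: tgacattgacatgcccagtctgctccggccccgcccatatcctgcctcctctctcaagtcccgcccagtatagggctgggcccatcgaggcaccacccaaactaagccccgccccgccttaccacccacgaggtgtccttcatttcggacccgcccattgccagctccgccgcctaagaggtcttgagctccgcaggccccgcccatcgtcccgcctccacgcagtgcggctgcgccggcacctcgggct
Ulk2, chr11:61855093-61855342, minus strand: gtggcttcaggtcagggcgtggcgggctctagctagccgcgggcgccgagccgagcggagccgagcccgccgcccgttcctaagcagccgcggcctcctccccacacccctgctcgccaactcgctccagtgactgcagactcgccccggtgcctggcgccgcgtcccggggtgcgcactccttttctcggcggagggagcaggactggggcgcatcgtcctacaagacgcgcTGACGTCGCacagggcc
Atg13, chr2:91710593-91710842, minus strand: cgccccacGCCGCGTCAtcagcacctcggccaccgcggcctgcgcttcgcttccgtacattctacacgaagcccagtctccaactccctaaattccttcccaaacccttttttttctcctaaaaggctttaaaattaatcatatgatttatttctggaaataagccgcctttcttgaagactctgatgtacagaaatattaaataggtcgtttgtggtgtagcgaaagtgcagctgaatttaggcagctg
Atg3, chr16:45158579-45158828, plus strand: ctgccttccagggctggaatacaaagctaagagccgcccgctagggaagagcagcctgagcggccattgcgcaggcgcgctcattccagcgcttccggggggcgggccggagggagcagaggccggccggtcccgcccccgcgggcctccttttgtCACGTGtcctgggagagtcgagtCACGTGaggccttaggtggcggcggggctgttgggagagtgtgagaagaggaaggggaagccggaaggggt

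RefSeq windows of 250 bases before to 50 after the start were held for 34 of the 40 genes. CACGTG was found in a window of 4 of the 34 (11.8%), namely Atg14, Atg3, Atg5 and Atg7, and in 8.09% of all genes with such windows. Of these 4, Atg3 and Atg7 fell with iBET, Atg14 rose and Atg5 passed the threshold given below under neither stimulus. Whether a match goes with a direction was not tested. TGACNNNGC was found in 4 of the 34 (Ulk2, Atg13, Map1lc3b and Tax1bp1) and in 14.0% of all genes. A match describes letters in a window and is no evidence of binding. The RefSeq start lay over 1000 bases from the start of the GENCODE gene for 5 of the 34 (Atg14, Wipi2, Atg4a, Atg4b and Atg7). The Atg7 match lies before such a start, and the Atg14 match spans one. These starts lie inside the GENCODE gene, 27999 and 2215 bases downstream of its start.

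Libraries held 16447491 to 29245150 counts, with a median of 21764663, and the 4 groups overlapped in depth. The dendritic cell marker Itgax stood at 1962 ± 187 CPM (SD, n = 5) in DMSO Ova, and the summed level of 10 dendritic cell markers ranged from 4732 to 9857 CPM over all libraries. Of these markers, Flt3 was at most 4.94 CPM and Cd209a at most 0.568 CPM in any library. Of the 9 tested, 2 were lower and 0 higher with iBET under both stimuli. These were Irf4, which went from 292 ± 73.9 to 163 ± 29.6 CPM with Ova and from 306 ± 61.5 to 188 ± 44.9 CPM with IC, and Flt3, which went from 3.03 ± 1.76 to 0.242 ± 0.113 and from 2.56 ± 1.41 to 0.349 ± 0.172 CPM. Summed levels of 10 macrophage or monocyte markers moved with the inhibitor. They ranged from 1830.5 to 2340.2 CPM in DMSO Ova and 1579 to 2026 CPM in DMSO IC, and from 919.6 to 1284 CPM in iBET Ova and 971 to 1423 CPM in iBET IC, so the DMSO and iBET groups did not overlap. Of the 9 that could be tested, 5 were lower and 1 higher with iBET with Ova and 4 were lower and 1 higher with iBET with IC, and none of the 10 was at 0 throughout. The part of these cells or of their markers in the differences below was not tested. Summed markers of neutrophils overlapped between all groups, but Mmp8 made up most of the sum. In DMSO Ova, Mmp8 stood at 588 ± 187 CPM, S100a8 at 12.0 ± 3.71 and S100a9 at 11.6 ± 9.42 CPM. Of 7 neutrophil markers tested, 1 was higher and 1 lower with iBET under both stimuli. Of 3 tested markers of mast cells or basophils, 1 was lower with iBET. Summed markers of B cells and of T or NK cells stayed under 2 CPM in every library.

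Levels were compared between genes per kilobase of exon, with the union of all exons of a gene taken from GENCODE M21 on GRCm38. The annotation used for counting is not given in the sources used here, so the order depends on these lengths. In DMSO Ova, Sqstm1 stood highest at 235 ± 20.7 CPM per kb (SD, n = 5), followed by Gabarap at 197 ± 26.1 and Gabarapl1 at 49.4 ± 6.18 CPM per kb. The other ATG8 genes were lower per kb, with Map1lc3b at 19.6 ± 1.74, Gabarapl2 at 12.1 ± 0.603 and Map1lc3a at 10.6 ± 2.85 CPM per kb. In CPM, without regard to length, Map1lc3b stood above Gabarapl1, at 148 ± 13.1 against 99.4 ± 12.4. Their exon unions hold 7517 and 2013 bases. Ulk2 stood at 8.34 ± 0.841 and Ulk1 at 4.28 ± 1.00 CPM per kb. At the low end were Atg16l2 (0.801 ± 0.126), Atg4a (0.408 ± 0.156), Atg9b (0.373 ± 0.0456) and Ulk4 (0.151 ± 0.0476 CPM per kb), the only members with group means under 1 CPM per kb in each of the 4 groups. Atg4a and Atg9b could not be ordered within their spread.

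**Figure D1:**
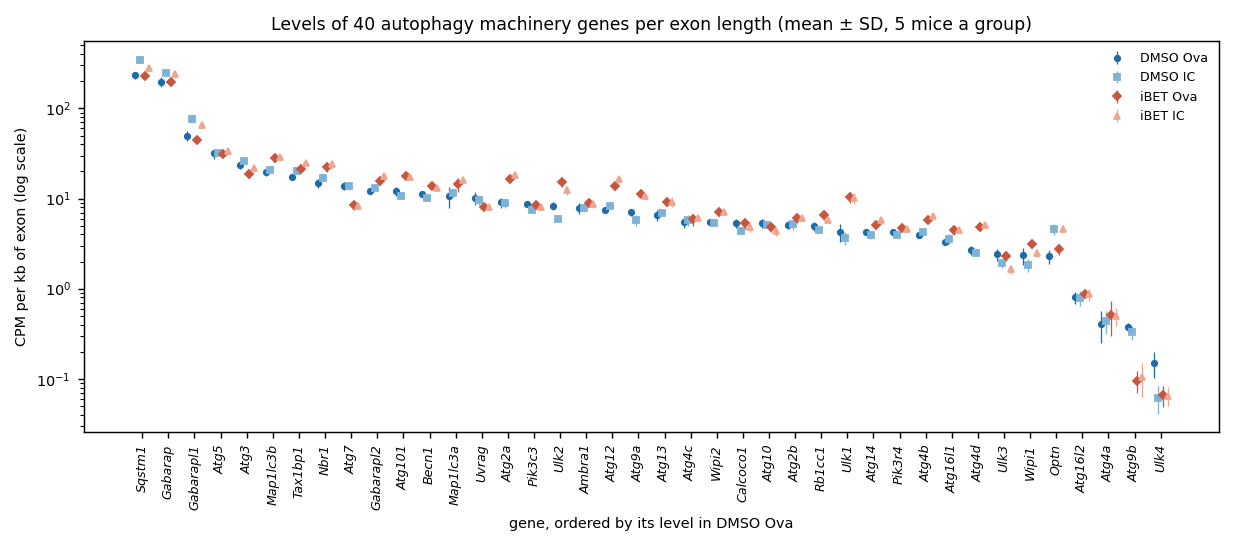
CPM per kilobase of exon (log scale) of the 40 autophagy machinery genes, ordered from left to right by their level in DMSO Ova, with points for the mean and bars for the SD of 5 mice in each of the 4 groups. Sqstm1 and Gabarap stand highest, at 235 and 197 CPM per kb in DMSO Ova, and the iBET points of Atg9b lie well below its DMSO points.

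The first comparison asked which of these genes differ between iBET and DMSO under the same stimulus. With iBET more members rose than fell, under ovalbumin and under immune complexes. With Ova, 22 of 40 members rose and 5 fell at an adjusted p under 0.05 by the quasi-likelihood test of edgeR, Benjamini-Hochberg adjusted over all genes tested, beside 27.7% of all genes higher and 28.9% lower. With IC, 22 rose and 6 fell, beside 27.1% of all genes higher and 29.0% lower. The median log2 fold change of the 40 members was 0.27 with Ova and 0.26 with IC, where that of all genes tested was -0.0029 and -0.0054. The same 22 members rose under both stimuli, and 4 fell under both. Ulk4 passed as lower with Ova alone, Gabarapl1 and Sqstm1 passed as lower with IC alone, and the remaining 11 members passed under neither stimulus. Both comparisons use the same 5 mice. With the mouse as a block in the model, 24 members rose and 5 fell with Ova (all genes 33.5% and 35.2%), and 23 rose and 7 fell with IC (all genes 32.6% and 35.4%).

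**Figure D2:**
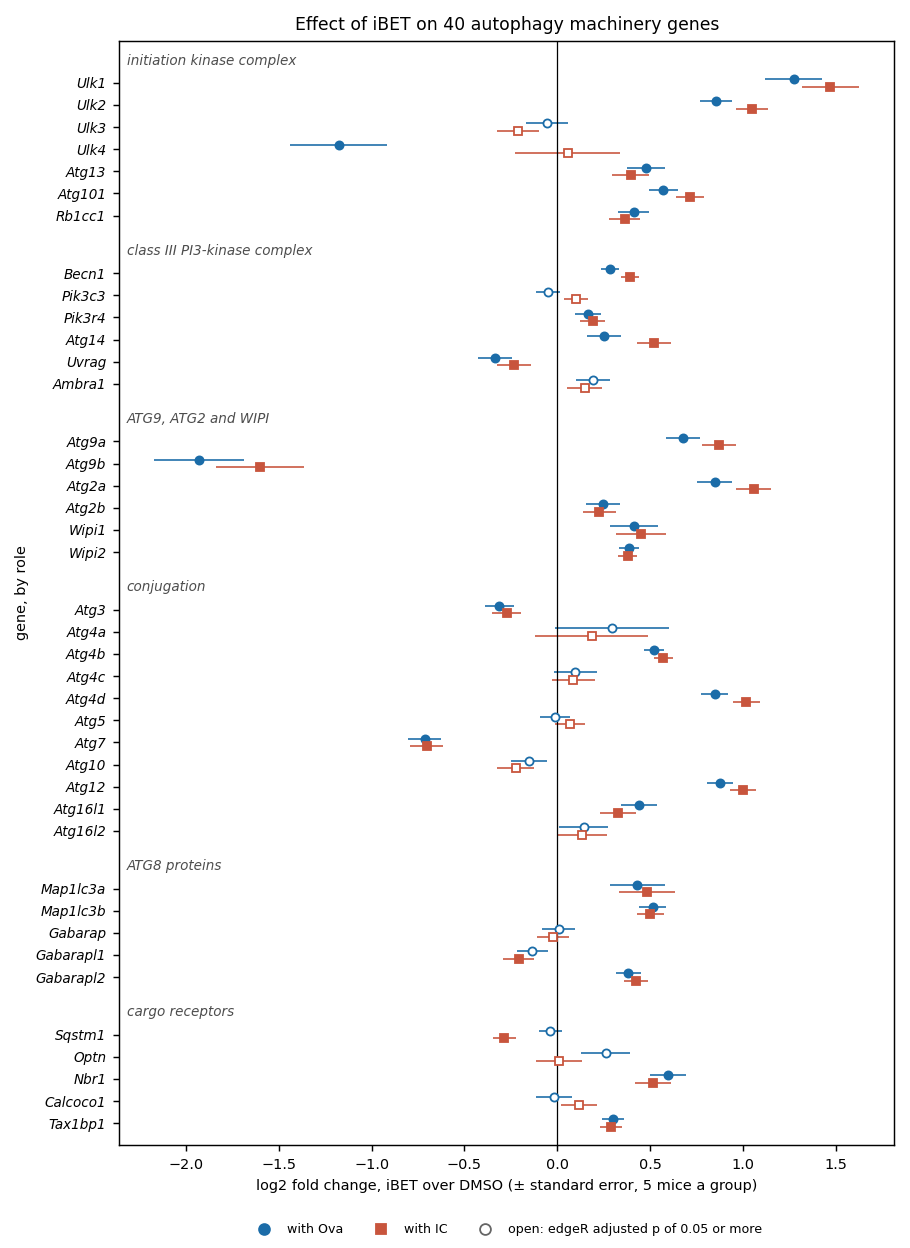
Log2 fold change of iBET over DMSO (horizontal axis, point ± standard error) for the 40 autophagy machinery genes grouped by role, with circles for Ova and squares for IC, 5 mice a group, and open symbols where edgeR's adjusted p was 0.05 or more. Ulk1 lies farthest to the right at 1.27 and 1.47 and Atg9b farthest to the left at -1.93 and -1.60, and most filled points lie right of 0.

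Of the 7 initiation genes, which are the 4 ULK kinases and the partners of ULK1, 5 rose with iBET under both stimuli and 1 fell with Ova. The iBET counts of this and the other role sets stand beside 27.7% of all genes higher and 28.9% lower with Ova. With IC those shares were 27.1% and 29.0%. Differences between role sets were not tested. Ulk1, on chromosome 5 from 110784488 to 110810097 in GRCm38, encodes the kinase that starts autophagy. In what follows, values of single libraries are CPM in the order of mice A to E, and log2 fold changes are given ± their standard error. With Ova, Ulk1 stood at 18.8, 29.9, 29.1, 36.3 and 24.6 CPM with DMSO and at 71.0, 67.8, 65.8, 78.4 and 52.8 CPM with iBET. With IC, Ulk1 stood at 29.5, 24.0, 18.1, 23.9 and 23.5 CPM with DMSO and at 60.6, 54.8, 71.0, 64.8 and 78.5 CPM with iBET. Every iBET library stood above every DMSO library under the same stimulus. Its log2 fold change with iBET was 1.27 ± 0.15 (adjusted p = 7.32e-07, edgeR) with Ova, a 2.42-fold rise, and 1.47 ± 0.15 (adjusted p = 1.14e-07, edgeR) with IC, a 2.77-fold rise. Ulk2 encodes a close relative of ULK1 that can act in its place. With Ova, Ulk2 stood at 45.5, 49.7, 50.4, 57.9 and 45.8 CPM with DMSO and at 90.4, 91.2, 89.1, 104 and 76.9 CPM with iBET. With IC, Ulk2 stood at 38.3, 37.0, 32.6, 36.1 and 34.7 CPM with DMSO and at 66.2, 64.7, 76.7, 81.5 and 80.6 CPM with iBET. Its iBET libraries lay above all DMSO libraries, with log2 fold changes of 0.86 ± 0.087 (adjusted p = 7.02e-08, edgeR) with Ova and 1.05 ± 0.087 (adjusted p = 4.65e-09, edgeR) with IC.

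The regulatory partners of the kinase rose less. Atg101, which stabilizes ATG13, had log2 fold changes of 0.57 with Ova and 0.71 with IC. Atg13, the adaptor that links the kinase to the complex, had 0.48 and 0.40, and Rb1cc1, which encodes the scaffold FIP200, had 0.41 and 0.36. Their edgeR adjusted p values lay between 1.31e-07 and 0.0022, all were higher in 5 of 5 mice, and none of their iBET libraries fell within the DMSO range under the same stimulus. Ulk3, a relative with roles outside the ULK1 complex, did not pass, at -0.054 (adjusted p = 0.701) and -0.21 (adjusted p = 0.123).

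Ulk4, which lacks the catalytic activity of its relatives, is not part of the ULK1 complex. It had the lowest level per kilobase of exon among the members in each group. Its libraries held 7 to 33 counts each. With Ova, Ulk4 stood at 0.981, 1.96, 1.37, 1.09 and 1.03 CPM with DMSO and at 0.525, 0.813, 0.467, 0.495 and 0.502 CPM with iBET. With IC, Ulk4 stood at 0.424, 0.545, 0.747, 0.625 and 0.284 CPM with DMSO and at 0.370, 0.530, 0.517, 0.620 and 0.723 CPM with iBET. With Ova the DMSO libraries lay above all iBET libraries, whereas with IC both groups were low and overlapped. Its log2 fold change was -1.18 ± 0.26 (adjusted p = 0.000724, edgeR) with Ova and 0.056 ± 0.28 (adjusted p = 0.88, edgeR) with IC. Of its exon bases, 8.93% lie over exons of Ctnnb1 on the other strand, and Ctnnb1 rose with iBET (0.98 with Ova and 0.89 with IC). The strand setting of the counting is not given in the sources used here, so reads of such overlapping pairs cannot be told apart.

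The class III PI3-kinase genes moved little, with 3 of 6 higher and 1 lower under either stimulus. Becn1 encodes Beclin 1, the scaffold of the complex. With Ova, Becn1 stood at 77.5, 82.6, 76.5, 79.4 and 80.7 CPM with DMSO and at 94.2, 94.1, 91.9, 98.4 and 104 CPM with iBET. With IC, Becn1 stood at 66.6, 70.9, 75.7, 68.7 and 73.7 CPM with DMSO and at 96.2, 93.2, 93.2, 93.5 and 90.8 CPM with iBET. The iBET libraries lay above all DMSO libraries. Its log2 fold change was 0.28 ± 0.048 (adjusted p = 4.31e-05, edgeR) with Ova and 0.39 ± 0.048 (adjusted p = 8.15e-07, edgeR) with IC. Exons of Cntd1 on the other strand cover 43.9% of its exon bases, and Cntd1 did not pass the filter on low counts.

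Atg14 encodes the subunit that directs the complex to autophagy. With Ova, Atg14 stood at 17.1, 18.1, 17.8, 20.5 and 18.8 CPM with DMSO and at 18.4, 21.6, 21.9, 24.1 and 23.9 CPM with iBET. With IC, Atg14 stood at 15.5, 15.7, 16.3, 19.9 and 18.4 CPM with DMSO and at 22.2, 22.4, 24.6, 28.4 and 25.7 CPM with iBET. With Ova the groups overlapped while each mouse was higher with iBET than with DMSO, and with IC they did not overlap. Its log2 fold change was 0.25 ± 0.090 (adjusted p = 0.0233, edgeR) with Ova and 0.52 ± 0.090 (adjusted p = 6.17e-05, edgeR) with IC. The call with Ova was lost without mouse C or without mouse E (largest adjusted p = 0.0951, edgeR). Here and below, fits with a mouse left out had no block by mouse, and the paired fit was not rerun in this way.

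Uvrag encodes the subunit of the form of the complex that acts on endosomes, in place of ATG14. With Ova, Uvrag stood at 74.6, 76.8, 108, 91.2 and 105 CPM with DMSO and at 71.8, 69.1, 72.6, 70.8 and 76.7 CPM with iBET. With IC, Uvrag stood at 74.4, 78.7, 92.9, 90.3 and 94.0 CPM with DMSO and at 69.9, 71.5, 75.9, 76.0 and 72.7 CPM with iBET. It fell in 5 of 5 mice under either stimulus, and the groups overlapped, with mice A and B low with DMSO as well. Its log2 fold change was -0.33 ± 0.092 (adjusted p = 0.00433, edgeR) with Ova and -0.23 ± 0.092 (adjusted p = 0.0369, edgeR) with IC. The call with IC was lost without mouse B, C, D or E in turn (largest adjusted p = 0.124). Exons of the antisense gene Gm45187 cover 17.6% of the exon bases of Uvrag. Pik3r4, the regulatory subunit VPS15, had 0.16 (adjusted p = 0.0494) and 0.19 (adjusted p = 0.0256). Its call with Ova was lost without mouse A, C, D or E (largest adjusted p = 0.162) and that with IC without mouse A or E (largest adjusted p = 0.0812). Pik3c3, the catalytic subunit VPS34, had -0.048 (adjusted p = 0.544) and 0.10 (adjusted p = 0.195) and did not pass. Ambra1, a regulator of Beclin 1, had 0.19 (adjusted p = 0.0876) and 0.15 (adjusted p = 0.186). It was higher in 5 of 5 mice and passed with the mouse as a block (adjusted p = 0.00682 and 0.0352).

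All 6 genes of the ATG9, ATG2 and WIPI set passed, with 5 higher and 1 lower under both stimuli. Atg2a encodes a channel that passes lipids from the endoplasmic reticulum into the growing membrane. With Ova, Atg2a stood at 56.3, 76.9, 71.2, 78.6 and 67.4 CPM with DMSO and at 127, 114, 126, 141 and 123 CPM with iBET. With IC, Atg2a stood at 63.9, 65.0, 58.6, 74.4 and 78.0 CPM with DMSO and at 128, 128, 153, 146 and 152 CPM with iBET. The lowest iBET value exceeded the highest DMSO value with both stimuli. The log2 fold change was 0.85 ± 0.094 (adjusted p = 2.6e-07, edgeR) with Ova and 1.06 ± 0.095 (adjusted p = 1.27e-08, edgeR) with IC. Its paralog Atg2b rose by less, at 0.25 (adjusted p = 0.0259) and 0.23 (adjusted p = 0.0394), with overlapping groups. That call was lost without mouse A or D with Ova (largest adjusted p = 0.0753) and without mouse C, D or E with IC (largest adjusted p = 0.121).

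The ATG9 scramblases moved in opposite directions. Atg9a encodes the broadly expressed one. Exons of the non-coding gene Gm29253 on the same strand cover 31.8% of the exon bases of Atg9a. With Ova, Atg9a stood at 41.7, 46.2, 37.1, 41.7 and 37.9 CPM with DMSO and at 73.2, 62.5, 59.4, 69.7 and 62.0 CPM with iBET. With IC, Atg9a stood at 36.1, 37.5, 26.0, 32.8 and 33.9 CPM with DMSO and at 65.3, 60.8, 59.8, 53.2 and 64.8 CPM with iBET. The groups did not overlap, and the log2 fold change was 0.68 ± 0.091 (adjusted p = 3.15e-06, edgeR) with Ova and 0.87 ± 0.092 (adjusted p = 1.17e-07, edgeR) with IC. Atg9b, its paralog of restricted expression, fell. With Ova, Atg9b stood at 1.25, 1.54, 1.70, 1.54 and 1.33 CPM with DMSO and at 0.404, 0.271, 0.350, 0.315 and 0.544 CPM with iBET. With IC, Atg9b stood at 1.17, 0.999, 1.59, 1.42 and 1.30 CPM with DMSO and at 0.481, 0.492, 0.259, 0.620 and 0.222 CPM with iBET. All iBET libraries lay below all DMSO libraries. The change on the log2 scale was -1.93 ± 0.24 (adjusted p = 1.22e-06, edgeR) with Ova and -1.60 ± 0.24 (adjusted p = 1.05e-05, edgeR) with IC, the largest falls of the 40 members, from a gene with at most 44 counts in a library. The iBET libraries held 4 to 13 counts of Atg9b each. Of the PI3P readers, Wipi1 had 0.41 and 0.45 and Wipi2, which recruits ATG16L1, had 0.39 and 0.38 with Ova and with IC. The Wipi1 call with Ova was lost without mouse D (adjusted p = 0.0677).

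In the conjugation systems 4 of 11 genes rose and 2 fell, the same genes under both stimuli. The shares were 36.4% higher and 18.2% lower, beside 27.7% and 28.9% of all genes with Ova and 27.1% and 29.0% with IC. Atg12 encodes the ubiquitin-like protein that is joined to ATG5. With Ova, Atg12 stood at 63.1, 55.8, 55.6, 54.5 and 60.6 CPM with DMSO and at 108, 121, 99.8, 96.9 and 106 CPM with iBET. With IC, Atg12 stood at 67.9, 60.4, 64.3, 64.3 and 61.0 CPM with DMSO and at 138, 135, 112, 132 and 120.3 CPM with iBET. All iBET libraries lay above all DMSO libraries. On the log2 scale its change was 0.88 ± 0.070 (adjusted p = 2.6e-09, edgeR) with Ova and 1.00 ± 0.070 (adjusted p = 3.91e-10, edgeR) with IC. Atg4d encodes one of the proteases that prime ATG8 proteins and release them from lipid. With Ova, Atg4d stood at 18.1, 22.9, 19.1, 19.2 and 17.8 CPM with DMSO and at 34.7, 29.9, 37.6, 34.6 and 38.0 CPM with iBET. With IC, Atg4d stood at 16.8, 18.9, 18.7, 18.5 and 18.4 CPM with DMSO and at 35.2, 39.1, 36.3, 37.9 and 36.5 CPM with iBET. The groups were again fully apart, with a log2 fold change of 0.85 ± 0.073 (adjusted p = 7.72e-09, edgeR) with Ova and 1.02 ± 0.073 (adjusted p = 6.29e-10, edgeR) with IC. Exons of Kri1 on the other strand cover 19.3% of its exon bases, and Kri1 had -0.14 with Ova and -0.085 with IC. It did not pass, except as lower with Ova with the mouse as a block (adjusted p = 0.0492).

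Atg7 encodes the E1 enzyme that activates both ATG12 and the ATG8 proteins, and it fell. With Ova, Atg7 stood at 103, 110.3, 87.8, 94.5 and 86.7 CPM with DMSO and at 66.7, 60.6, 48.6, 57.6 and 60.1 CPM with iBET. With IC, Atg7 stood at 108, 96.0, 84.9, 91.3 and 94.1 CPM with DMSO and at 65.8, 60.1, 53.0, 53.7 and 58.8 CPM with iBET. The highest iBET library lay below the lowest DMSO library under both stimuli, and mouse A or B was highest in each group. The fitted log2 fold change was -0.71 ± 0.089 (adjusted p = 1.22e-06, edgeR) with Ova, to 0.610 of the DMSO level, and -0.70 ± 0.089 (adjusted p = 1.45e-06, edgeR) with IC. Atg3, the E2 enzyme that passes ATG8 on to lipid, fell by less, at -0.31 (adjusted p = 0.00242) and -0.27 (adjusted p = 0.00635). Its promoter bases printed above hold CACGTG at a pair of places. Atg4b, the main ATG4 protease, had 0.52 and 0.57, and Atg16l1, which places the conjugation site on the membrane, had 0.44 and 0.33. Both were higher in 5 of 5 mice with groups that did not overlap. Atg4a, Atg4c, Atg5, Atg10 and Atg16l2 passed under neither stimulus. Of these, Atg10, the E2 enzyme of ATG12, had -0.22 with IC (adjusted p = 0.0629) and passed there with the mouse as a block (adjusted p = 0.0425).

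**Figure D3:**
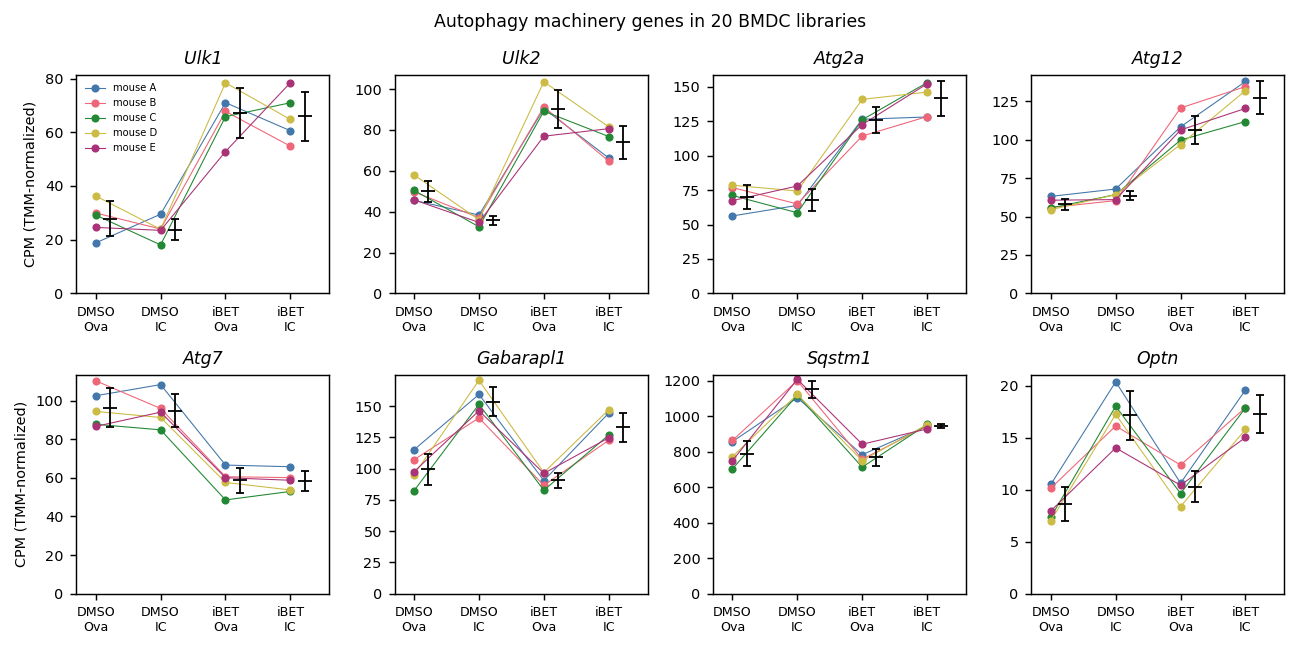
TMM-normalized CPM of 8 autophagy machinery genes in the 20 libraries (vertical axes from 0), with coloured points and lines for mice A to E and black marks for the mean ± SD of each group of 5. Ulk1, Ulk2, Atg2a and Atg12 step up and Atg7 steps down from DMSO to iBET, while Gabarapl1, Sqstm1 and Optn are higher with IC than with Ova.

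The ATG8 genes divided into those that rose with iBET and those that did not. Map1lc3b encodes LC3B, the usual marker of autophagosomes. With Ova, Map1lc3b stood at 159, 160.5, 131, 149.9 and 137 CPM with DMSO and at 235, 191, 193, 221 and 214 CPM with iBET. With IC, Map1lc3b stood at 171, 147, 143, 154 and 156 CPM with DMSO and at 226, 214, 206, 231 and 214 CPM with iBET. The groups did not overlap, and the log2 fold change was 0.52 ± 0.072 (adjusted p = 5e-06, edgeR) with Ova and 0.50 ± 0.072 (adjusted p = 6.9e-06, edgeR) with IC. Gabarapl2 encodes GATE-16, a member of the GABARAP branch. With Ova, Gabarapl2 stood at 30.1, 27.8, 26.7, 27.4 and 29.3 CPM with DMSO and at 34.0, 34.3, 39.2, 36.6 and 40.1 CPM with iBET. With IC, Gabarapl2 stood at 30.2, 27.8, 33.1, 30.2 and 31.1 CPM with DMSO and at 39.3, 39.6, 39.8, 46.3 and 39.2 CPM with iBET. It stood higher in all iBET libraries, with 0.38 ± 0.065 (adjusted p = 5.06e-05, edgeR) with Ova and 0.42 ± 0.065 (adjusted p = 1.56e-05, edgeR) with IC.

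Map1lc3a encodes LC3A and was the lowest of the ATG8 genes in CPM. With Ova, Map1lc3a stood at 15.3, 16.7, 9.47, 12.0 and 9.34 CPM with DMSO and at 19.4, 12.4, 15.8, 18.2 and 18.7 CPM with iBET. With IC, Map1lc3a stood at 12.4, 15.0, 12.0, 14.4 and 14.0 CPM with DMSO and at 21.3, 19.8, 16.1, 18.6 and 19.0 CPM with iBET. With Ova the groups overlapped: mice A and B were the highest with DMSO, and mouse B alone stood lower with iBET. The change on the log2 scale was 0.43 ± 0.15 (adjusted p = 0.0193, edgeR) with Ova, lost without mouse C, D or E (largest adjusted p = 0.145), and 0.48 ± 0.15 (adjusted p = 0.00967, edgeR) with IC.

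Gabarap and Gabarapl1, which encode close relatives in the GABARAP branch, did not pass as higher with iBET. With Ova, Gabarap stood at 432, 389, 307, 344 and 346 CPM with DMSO and at 411, 352, 331, 357 and 377 CPM with iBET. With IC, Gabarap stood at 462, 454, 441, 464 and 443 CPM with DMSO and at 502, 464, 413, 465 and 382 CPM with iBET. The iBET and DMSO groups overlapped, and the difference was 0.0073 ± 0.087 (adjusted p = 0.949, edgeR) with Ova, with a 95% interval of -0.17 to 0.19, and -0.025 ± 0.087 (adjusted p = 0.826, edgeR) with IC, with an interval of -0.21 to 0.16. With Ova, Gabarapl1 stood at 115, 107, 82.3, 95.0 and 97.6 CPM with DMSO and at 90.4, 86.6, 82.7, 96.8 and 96.2 CPM with iBET. With IC, Gabarapl1 stood at 159, 140.5, 151, 171 and 146 CPM with DMSO and at 144, 123, 127, 147 and 125 CPM with iBET. Gabarapl1 was lower with iBET in 5 of 5 mice given IC, with overlapping groups, and its log2 fold change was -0.21 ± 0.083 (adjusted p = 0.0416, edgeR). That call was lost without mouse B, C, D or E (largest adjusted p = 0.117). With Ova it was -0.13 ± 0.084 (adjusted p = 0.179, edgeR). Exons of the non-coding gene 1700101I11Rik on the other strand cover 28.3% of the exon bases of Gabarapl1.

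Of the 5 cargo receptors, Nbr1 and Tax1bp1 rose with iBET under both stimuli and Sqstm1 fell with IC. Nbr1 binds ubiquitin and helps p62 gather cargo. With Ova, Nbr1 stood at 113, 111, 85.6, 100.3 and 95.0 CPM with DMSO and at 168, 169.8, 136, 150.1 and 139 CPM with iBET. With IC, Nbr1 stood at 129, 124, 102, 116 and 105 CPM with DMSO and at 191, 174, 143, 165 and 149 CPM with iBET. The iBET libraries lay above all DMSO libraries, and mice A and B were highest in every group. The log2 fold change was 0.59 ± 0.097 (adjusted p = 3.13e-05, edgeR) with Ova and 0.51 ± 0.097 (adjusted p = 0.000149, edgeR) with IC. Tax1bp1 encodes a receptor that also restrains NF-κB signalling. With Ova, Tax1bp1 stood at 178, 170.4, 155, 173 and 191 CPM with DMSO and at 199, 233, 208, 210.5 and 218 CPM with iBET. With IC, Tax1bp1 stood at 194, 200.3, 212, 204 and 196 CPM with DMSO and at 248, 244, 239, 262 and 239 CPM with iBET. Its groups did not overlap either, and its log2 fold change was 0.30 ± 0.058 (adjusted p = 0.000172, edgeR) with Ova and 0.29 ± 0.058 (adjusted p = 0.000251, edgeR) with IC.

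Sqstm1 encodes p62, the receptor for ubiquitinated cargo and itself a target of NRF2. With Ova, Sqstm1 stood at 858, 864, 704, 773 and 750.3 CPM with DMSO and at 784, 758, 714, 750.3 and 843 CPM with iBET. With IC, Sqstm1 stood at 1105, 1202, 1120.4, 1124 and 1209 CPM with DMSO and at 945, 946, 955, 954 and 929 CPM with iBET. With IC the 5 iBET libraries lay close together and below all DMSO libraries, whereas with Ova the groups overlapped. On the log2 scale its change with iBET was -0.29 ± 0.062 (adjusted p = 0.000612, edgeR) with IC and -0.037 ± 0.062 (adjusted p = 0.633, edgeR) with Ova. Exons of Mrnip on the other strand cover 17.3% of its exon bases.

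Optn encodes optineurin, a receptor for damaged mitochondria and bacteria. With Ova, Optn stood at 10.5, 10.1, 7.35, 7.00 and 7.95 CPM with DMSO and at 10.6, 12.4, 9.63, 8.38 and 10.4 CPM with iBET. With IC, Optn stood at 20.4, 16.1, 18.0, 17.2 and 14.0 CPM with DMSO and at 19.6, 17.9, 17.9, 15.8 and 15.0 CPM with iBET. The iBET and DMSO groups overlapped under both stimuli. The fitted log2 fold change was 0.26 ± 0.13 (adjusted p = 0.0955, edgeR) with Ova, which passed with the mouse as a block (adjusted p = 0.0208), and 0.0092 ± 0.13 (adjusted p = 0.957, edgeR) with IC. Calcoco1, a receptor for the endoplasmic reticulum, also overlapped. With Ova, Calcoco1 stood at 26.0, 32.0, 33.2, 34.1 and 28.1 CPM with DMSO and at 28.7, 26.6, 32.1, 35.9 and 28.3 CPM with iBET. With IC, Calcoco1 stood at 22.7, 25.0, 24.8, 27.0 and 26.6 CPM with DMSO and at 26.8, 22.3, 27.3, 30.4 and 30.1 CPM with iBET. The change on the log2 scale was -0.016 ± 0.097 (adjusted p = 0.896, edgeR) with Ova and 0.12 ± 0.098 (adjusted p = 0.322, edgeR) with IC.

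The second comparison asked which members differ between immune complexes and ovalbumin alone, with DMSO and with iBET. It uses the same libraries as the first, so its values share their groups with those above and are set beside them without a test of likeness. With DMSO, 5 of 40 members were higher with IC and 7 lower, beside 9.59% and 10.7% of all genes. With iBET, 7 were higher and 2 lower, beside 5.19% and 6.63% of all genes. The median log2 fold change of the members was -0.013 with DMSO and 0.00066 with iBET, beside -0.024 and -0.014 over all genes. With DMSO, all members that rose were ATG8 genes or cargo receptors, and all but 1 of those that fell belonged to the initiation, PI3-kinase and ATG9 sets. The roles were assigned from textbook knowledge, and the difference between roles was not tested.

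These counts depended on how libraries were scaled. With library size alone in place of TMM, the median of all genes moved to -0.13 with DMSO and -0.12 with iBET, and the members higher and lower numbered 3 and 10 with DMSO and 3 and 5 with iBET. With the mouse as a block, 6 members were higher and 9 lower with DMSO (all genes 18.3% and 19.8%), and 10 higher and 3 lower with iBET (all genes 14.2% and 14.7%).

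**Figure D4:**
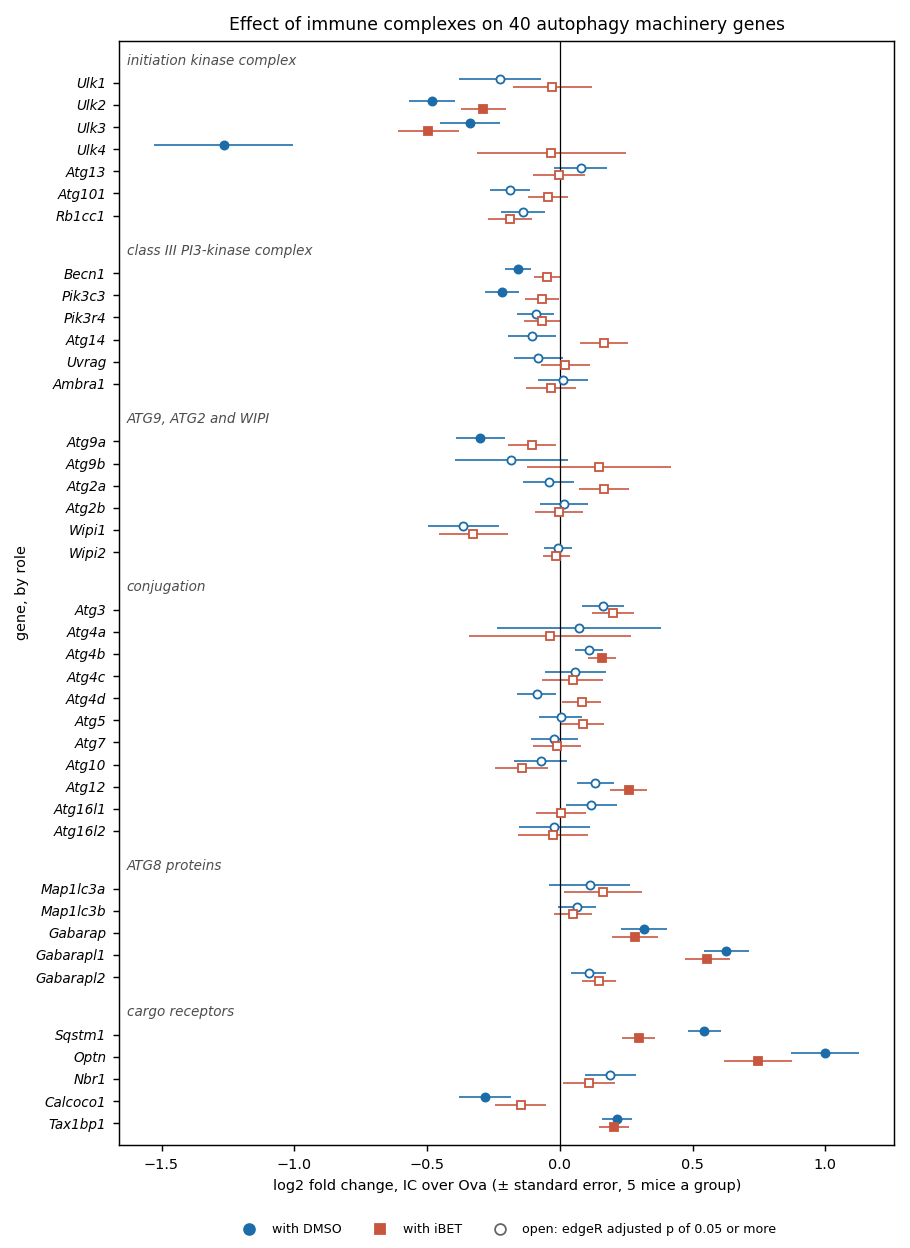
Log2 fold change of IC over Ova (horizontal axis, point ± standard error) for the 40 autophagy machinery genes grouped by role, with circles for DMSO and squares for iBET, 5 mice a group, and open symbols where edgeR's adjusted p was 0.05 or more. Optn, Gabarapl1, Sqstm1, Gabarap and Tax1bp1 have filled points right of 0 under both conditions, Ulk4 lies at -1.27 with DMSO and at -0.032 with iBET, and most other points are open and near 0.

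Among the receptors, Optn had the largest rise with IC. Every IC library stood above every Ova library under the same treatment in the values given above, from a mean of 8.59 ± 1.62 to 17.1 ± 2.35 CPM with DMSO (SD, n = 5 each). On the log2 scale its change with IC was 1.00 ± 0.13 (adjusted p = 2.78e-05, edgeR) with DMSO and 0.75 ± 0.13 (adjusted p = 0.000815, edgeR) with iBET. Sqstm1 went from 789.9 ± 69.6 to 1152 ± 49.4 CPM with DMSO and from 769.9 ± 48.0 to 946 ± 10.2 CPM with iBET, with no overlap between Ova and IC. The fitted log2 fold change was 0.54 ± 0.062 (adjusted p = 6.5e-06, edgeR) with DMSO and 0.30 ± 0.062 (adjusted p = 0.00402, edgeR) with iBET. Tax1bp1 rose by less, at 0.22 ± 0.058 (adjusted p = 0.0123, edgeR) with DMSO and 0.20 ± 0.057 (adjusted p = 0.0249, edgeR) with iBET. These calls were lost without mouse C or D with DMSO (largest adjusted p = 0.114) and without mouse A, C or D with iBET (largest adjusted p = 0.168). Calcoco1 fell with DMSO, at -0.28 ± 0.098 (adjusted p = 0.047, edgeR), a call lost without any 1 of the 5 mice (largest adjusted p = 0.246), and had -0.15 with iBET (adjusted p = 0.367). Nbr1 was higher with IC in 5 of 5 mice under both treatments, at 0.19 (adjusted p = 0.179) and 0.11 (adjusted p = 0.529), and passed with the mouse as a block (adjusted p = 0.000649 and 0.0368).

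Of the 5 ATG8 genes, Gabarapl1 and Gabarap rose with IC. Gabarapl1 went from 99.4 ± 12.4 to 154 ± 11.7 CPM with DMSO and from 90.5 ± 6.10 to 133 ± 11.6 CPM with iBET, and no IC library reached down to an Ova library. The change on the log2 scale was 0.63 ± 0.084 (adjusted p = 4.06e-05, edgeR) with DMSO and 0.56 ± 0.084 (adjusted p = 0.000238, edgeR) with iBET. Gabarap had 0.32 ± 0.087 (adjusted p = 0.0146, edgeR) with DMSO and 0.28 ± 0.087 (adjusted p = 0.0381, edgeR) with iBET, higher in 5 of 5 mice in each. The calls of Gabarap were lost without mouse C or D with DMSO (largest adjusted p = 0.0977) and without mouse B, C or D with iBET (largest adjusted p = 0.179). Gabarapl2 had 0.11 (adjusted p = 0.262) and 0.15 (adjusted p = 0.147), Map1lc3a 0.11 (adjusted p = 0.661) and 0.16 (adjusted p = 0.551), and Map1lc3b 0.064 (adjusted p = 0.59) and 0.050 (adjusted p = 0.728). None of these passed.

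Of the initiation genes, Ulk4, Ulk2 and Ulk3 fell with IC under DMSO. Ulk4 had the largest fall of the set, -1.27 ± 0.26 (adjusted p = 0.00213, edgeR), and with iBET, where it was already low with Ova, it had -0.032 (adjusted p = 0.961). Ulk2 had -0.48 ± 0.087 (adjusted p = 0.000732, edgeR) with DMSO, where every IC library lay below every Ova library, and -0.29 ± 0.086 (adjusted p = 0.0335, edgeR) with iBET, lower in 4 of 5 mice. The latter call was lost without mouse A, B, C or D (largest adjusted p = 0.167).

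With Ova, Ulk3 stood at 8.27, 9.54, 11.5, 11.7 and 8.98 CPM with DMSO and at 8.77, 11.1, 8.93, 10.7 and 8.70 CPM with iBET. With IC, Ulk3 stood at 7.58, 9.12, 8.26, 7.08 and 7.55 CPM with DMSO and at 6.36, 6.78, 7.24, 5.96 and 7.90 CPM with iBET. For Ulk3 the IC libraries lay below all Ova libraries with iBET and overlapped them with DMSO. On the log2 scale its change with IC was -0.34 ± 0.11 (adjusted p = 0.0396, edgeR) with DMSO and -0.50 ± 0.11 (adjusted p = 0.00773, edgeR) with iBET. It was lost without mouse C, D or E with DMSO (largest adjusted p = 0.229) and without mouse D with iBET (adjusted p = 0.0606). Ulk1, by contrast, had -0.22 (adjusted p = 0.334, interval -0.55 to 0.097) and -0.028 (adjusted p = 0.935, interval -0.34 to 0.29). Atg101 had -0.19 with DMSO (adjusted p = 0.0902) and passed there with the mouse as a block (adjusted p = 0.049).

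Among the PI3-kinase genes, Pik3c3 and Becn1 fell with IC under DMSO. With Ova, Pik3c3 stood at 37.1, 40.2, 35.9, 39.4 and 42.9 CPM with DMSO and at 37.9, 38.7, 34.5, 39.8 and 38.1 CPM with iBET. With IC, Pik3c3 stood at 32.9, 30.5, 32.3, 35.8 and 36.7 CPM with DMSO and at 37.0, 35.3, 32.8, 38.5 and 36.7 CPM with iBET. Pik3c3 was lower with IC in 5 of 5 mice, with groups that overlapped slightly. The fitted log2 fold change was -0.22 ± 0.065 (adjusted p = 0.0228, edgeR) with DMSO, and it was -0.068 with iBET (adjusted p = 0.57). Becn1 had -0.16 ± 0.048 (adjusted p = 0.0249, edgeR) with DMSO, where its groups did not overlap, and -0.049 with iBET (adjusted p = 0.58). The Pik3c3 call was lost without mouse A, B, D or E (largest adjusted p = 0.138), and the Becn1 call without mouse A, B, C or D (largest adjusted p = 0.132). In the ATG9 set, Atg9a had -0.30 ± 0.092 (adjusted p = 0.026, edgeR) with DMSO, lost without mouse B, C, D or E (largest adjusted p = 0.0965). Wipi1 was lower with IC in 5 of 5 mice under both treatments, at -0.36 (adjusted p = 0.059) and -0.33 (adjusted p = 0.113), and passed with the mouse as a block (adjusted p = 0.000826 and 0.00157). Atg14 had -0.10 with DMSO (adjusted p = 0.469) and 0.17 with iBET (adjusted p = 0.253), of which the latter passed with the mouse as a block (adjusted p = 0.0148).

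In the conjugation systems, Atg12 and Atg4b rose with IC under iBET. Atg12 had 0.26 ± 0.069 (adjusted p = 0.0187, edgeR) and Atg4b 0.16 ± 0.052 (adjusted p = 0.0499, edgeR), each higher in 5 of 5 mice. With DMSO they had 0.13 (adjusted p = 0.189) and 0.11 (adjusted p = 0.151). The Atg12 call was lost without mouse A or D (largest adjusted p = 0.138), and the Atg4b call without any 1 of the 5 mice (largest adjusted p = 0.191). Atg3 had 0.20 with iBET (adjusted p = 0.108) and passed there with the mouse as a block (adjusted p = 0.0366).

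Whether the effect of iBET differed between the stimuli was tested by the interaction, the iBET effect with IC minus that with Ova. No member passed, beside 0.0401% of all genes (5 of 12465). At an unadjusted p under 0.05 there were 3 members and 543 of all genes, and DESeq2 and limma called 0 members as well. The smallest p belonged to Ulk4, with a difference of 1.23 (edgeR adjusted p = 0.677). Sqstm1 followed with -0.25 (edgeR adjusted p = 0.931) and Atg14 with 0.27 (edgeR adjusted p = 1). With the mouse as a block 0.818% of all genes passed and again no member, with an adjusted p of 0.0765 for Atg14. The calls of Ulk4, Sqstm1 and Gabarapl1 under 1 stimulus and not the other are therefore not shown to differ between the stimuli.

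The wider pathway was described with 5 further lists. For IC against Ova their counts stand beside 9.59% of all genes higher and 10.7% lower under DMSO, and 5.19% and 6.63% under iBET. Those with the mouse as a block stand beside the higher shares of all genes given above for that fit. The rises and falls named are the largest among genes that passed under both stimuli, by the mean of both log2 fold changes. Of 28 tested genes of nutrient and stress signalling upstream of ULK1, 11 rose and 5 fell with iBET with Ova, and 10 rose and 6 fell with IC. The shares of the list were 39.3% higher and 17.9% lower with Ova, where those of all genes were 27.7% and 28.9%, and 35.7% and 21.4% with IC, where those of all genes were 27.1% and 29.0%. The rises were led by the sestrins, which restrain mTORC1 when amino acids or energy run short. Sesn3 rose by 2.06 (adjusted p = 1.09e-05) and 2.38 (adjusted p = 2.31e-06) on the log2 scale, with Ova and with IC, and Sesn1 by 1.11 and 1.16. The falls were led by Rragd, a GTPase that recruits mTORC1 to the lysosome, at -1.25 and -1.49, and Prkag2, a subunit of the energy sensor AMPK, at -0.95 and -0.69. Rragd also rose with IC, by 1.66 with DMSO (adjusted p = 4.6e-08) and by 1.42 with iBET (adjusted p = 1.7e-06). Among 28 genes, 6 were higher and 3 lower with IC under DMSO, and 4 higher and 1 lower under iBET. With the mouse as a block these counts were 15 higher and 8 lower for iBET with Ova and 14 and 7 with IC, and 6 higher and 7 lower for IC under DMSO and 5 and 3 under iBET.

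Of 13 transcriptional regulators of autophagy and lysosome genes, 7 rose and 3 fell with iBET with Ova, and 4 rose and 4 fell with IC. The shares of the list were 53.8% higher and 23.1% lower with Ova, where those of all genes were 27.7% and 28.9%, and 30.8% and 30.8% with IC, where those of all genes were 27.1% and 29.0%. The falls included 3 of the 4 members of the MiT/TFE family, which switch on genes of lysosomes and autophagy. Tfeb encodes its best known member. With Ova, Tfeb stood at 39.6, 42.3, 34.8, 40.7 and 36.0 CPM with DMSO and at 15.9, 14.3, 14.9, 19.0 and 17.8 CPM with iBET. With IC, Tfeb stood at 55.2, 49.5, 48.2, 61.2 and 60.7 CPM with DMSO and at 24.6, 19.4, 16.8, 21.7 and 19.6 CPM with iBET. All iBET libraries lay below all DMSO libraries, and the log2 fold change was -1.24 ± 0.10 (adjusted p = 5.54e-09, edgeR) with Ova and -1.43 ± 0.10 (adjusted p = 6.92e-10, edgeR) with IC. Tfec had -1.63 (adjusted p = 2.24e-07) and -2.09 (adjusted p = 9.31e-09). Mitf and Tfe3 were added after their values were seen, to complete the family. Mitf had -1.11 (adjusted p = 9.32e-10) and -1.44 (adjusted p = 2.56e-11), and Tfe3 rose by 0.21 (adjusted p = 0.00156) and 0.16 (adjusted p = 0.0132), a call lost with IC without mouse C (adjusted p = 0.0577). The rises were led by the FOXO factors, which drive autophagy genes when insulin signalling is low, with Foxo1 at 0.67 and 0.82 and Foxo3 at 0.54 and 0.49. With IC under DMSO, 3 of the 13 were higher and 0 lower, among them Tfeb at 0.51 (adjusted p = 0.00161), and under iBET 1 was higher and 1 lower. The paired fit, with the mouse as a block, gave 7 higher and 3 lower for iBET with Ova and 4 and 4 with IC, and 4 higher and 1 lower for IC under DMSO and 3 and 2 under iBET. In that fit Tfec also passed the interaction, with a fall that was larger with IC by 0.47 (adjusted p = 0.0333), which did not pass without the block (adjusted p = 1).

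**Figure D5:**
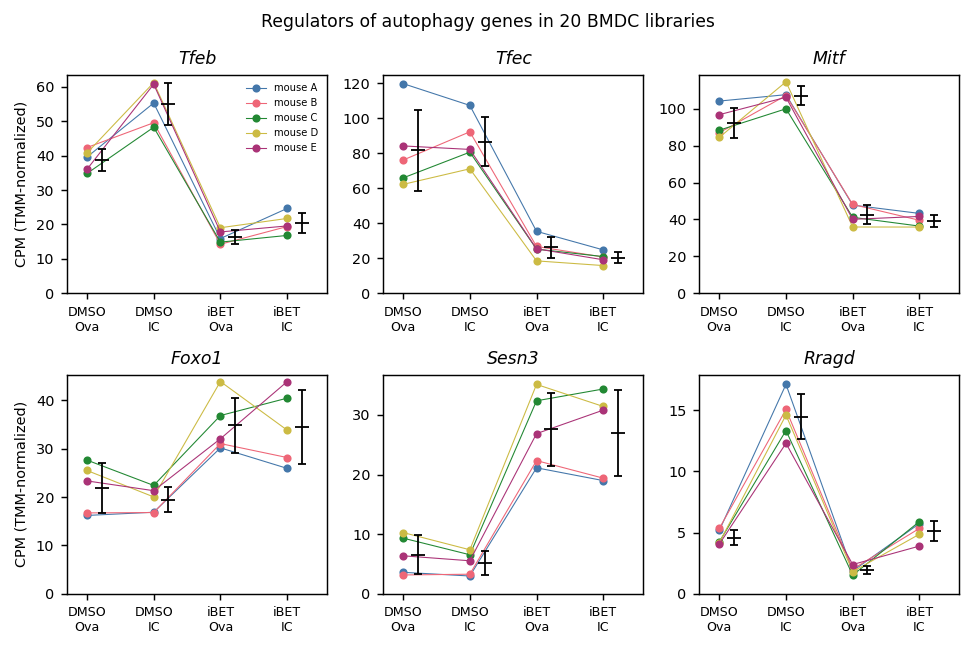
TMM-normalized CPM of Tfeb, Tfec, Mitf, Foxo1, Sesn3 and Rragd, regulators upstream of the autophagy machinery, in the 20 libraries (vertical axes from 0), with coloured points and lines for mice A to E and black marks for the mean ± SD of each group of 5. Tfeb, Tfec, Mitf and Rragd are lower and Sesn3 and Foxo1 higher with iBET than with DMSO, and Rragd and Tfeb stand higher with IC than with Ova under DMSO.

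Of 17 further formation factors, 5 rose and 3 fell with iBET with Ova, and 5 rose and 5 fell with IC. The shares of the list were 29.4% higher and 17.6% lower with Ova, where those of all genes were 27.7% and 28.9%, and 29.4% and 29.4% with IC, where those of all genes were 27.1% and 29.0%. Rab33b, a GTPase that binds ATG16L1, led the rises at 1.10 and 0.98, followed by Tecpr2, which acts on membrane traffic for autophagy, at 0.39 and 0.40. Bcl2l1 encodes BCL-XL, which holds Beclin 1 inactive, and led the falls at -0.88 and -1.05. It rose with IC, by 0.88 with DMSO and 0.71 with iBET, the latter call lost without mouse B or C (largest adjusted p = 0.0669). Tecpr1, a tether of autophagosomes to lysosomes, had -0.18 with Ova, a call lost without any 1 of the 5 mice (largest adjusted p = 0.586), and -0.33 with IC. With IC it rose by 0.76 with DMSO and by 0.61 with iBET. In this list 4 genes were higher and 1 lower with IC under DMSO, and 3 higher and 1 lower under iBET. Counts with the mouse as a block were 7 higher and 6 lower for iBET with Ova and 5 and 7 with IC, and 8 higher and 2 lower for IC under DMSO and 5 and 3 under iBET.

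Of 17 genes of fusion with lysosomes, 5 rose and 3 fell with iBET with Ova, and 5 rose and 4 fell with IC. The shares of the list were 29.4% higher and 17.6% lower with Ova, where those of all genes were 27.7% and 28.9%, and 29.4% and 23.5% with IC, where those of all genes were 27.1% and 29.0%. Epg5, a tether of autophagosomes and late endosomes, rose by 0.73 and 0.82 and Stx17, the SNARE of the autophagosome, by 0.40 and 0.44. Its SNARE partner on the lysosome, Vamp8, fell by 0.75 and 0.82, and Vps41, a subunit of the HOPS tether, fell by 0.64 and 0.52 on the log2 scale. With IC, 5 of the 17 were higher and 3 lower under DMSO, and 4 higher and 2 lower under iBET. In the paired fit the counts were 6 higher and 4 lower for iBET with Ova and 6 and 4 with IC, and 7 higher and 5 lower for IC under DMSO and 7 and 2 under iBET. Of 18 further receptors and adaptors, 6 rose and 4 fell with iBET with Ova, and 8 rose and 5 fell with IC. The shares of the list were 33.3% higher and 22.2% lower with Ova, where those of all genes were 27.7% and 28.9%, and 44.4% and 27.8% with IC, where those of all genes were 27.1% and 29.0%. Bnip3, a receptor on mitochondria that responds to low oxygen, rose by 0.62 and 0.39, the latter call lost without mouse D (adjusted p = 0.0576), and Cdk5rap3, an adaptor of autophagy of the endoplasmic reticulum, by 0.46 and 0.44. Fundc1, another mitochondrial receptor, had -0.87 and -0.79, and Fam134b, a receptor of the endoplasmic reticulum, -0.50 and -0.57. In this list 3 genes were higher and 2 lower with IC under DMSO, and 2 higher and 1 lower under iBET. The block by mouse gave 9 higher and 5 lower for iBET with Ova and 10 and 5 with IC, and 3 higher and 3 lower for IC under DMSO and 3 and 2 under iBET. No gene of the 5 lists passed the interaction test without the mouse as a block, and Tfec alone passed with it.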

How the data were processed

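Bulk RNA-seq of BMDCs from 5 mice in 4 groups (20 libraries) was used. As the methods state, reads were trimmed by the authors, cleared of adaptors and of bases of low quality, mapped to mm10 by HISAT2 and assigned to genes by featureCounts. The authors deposited raw counts per gene and library, and also signal values, checked to be the same counts over the DESeq2 size factor of each library. Annotation and strand setting of the counting are not given in the sources used here.

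After filterByExpr and TMM scaling, edgeR 4.0.16 (R 4.3.3) fitted its quasi-likelihood model, in 1 fit of 20 libraries with the 4 groups as factor. Benjamini-Hochberg adjustment of p-values ran over all 12465 genes tested, at a threshold of 0.05. The scripts were tested on simulated data. The effect of iBET was tested within each stimulus, the effect of IC within each treatment, and then their interaction. CPM are TMM-normalized, and a median depth of 21764663 counts limits the precision of genes with few counts. Errors are the SD over mice for CPM and the standard error of the fit for log2 fold changes.

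The labels give each mouse a letter shared by the 4 groups. Libraries that share a letter moved together around the group means (mean correlation across genes 0.524 over 30 pairs, lowest 0.307). Over 120 pairs of different letters the mean was -0.127. The latter included pairs across the division of mice A and B from C, D and E given below. These values cannot tell a shared mouse from other differences that go with the letter. The letters were taken to pair the libraries, and the mouse as a block was an alternative. The other alternatives were DESeq2 1.42.0 (Wald test) with and without the block, DESeq2 size factors, library size only, no filter on low counts, 3 surrogate variables from sva 3.50.0, the deposited signal as log2(value + 1) (limma 3.58.1), leaving out each of the mice, mice A and B only, and mice C, D and E only. Libraries of mice A and B lay apart from those of mice C, D and E along the second principal component of log2 CPM. That component held 14.9% of the variance, and the main fit had no term for this division. Runs on part of the mice used the fit without the block, so differences between mice stayed in their error. The paired fit was not run with a mouse left out.

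The genes and lists were chosen with earlier results of these data known. In each role set, the member with the largest rise and fall past the threshold in each pairwise contrast was given in full, the ATG8 genes and cargo receptors all in full, and other members past the threshold by log2 fold change. Of each further list, the 2 largest rises and falls past the threshold under both stimuli were named, ranked by the mean of both. Positions are from GENCODE M21 (GRCm38), and promoter windows from RefSeq (GRCm38.p6).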

Additional observations from a re-analysis of the deposited data

Results flagged for a closer look

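Within groups of 5 mice, 7 of 160 groups held a library far from the other 4, where chance gives about 1 in 20. Ulk4 in iBET Ova was highest in mouse B, at 0.813 CPM, where the other mice ranged from 0.467 to 0.525 CPM. Rb1cc1 in DMSO IC was highest in mouse D, at 74.4 CPM, where the other mice ranged from 62.3 to 65.8 CPM. Rb1cc1 in iBET Ova was highest in mouse B, at 118 CPM, where the other mice ranged from 88.1 to 96.3 CPM. Atg4d in DMSO Ova was highest in mouse B, at 22.9 CPM, where the other mice ranged from 17.8 to 19.2 CPM. Atg4d in DMSO IC was lowest in mouse A, at 16.8 CPM, where the other mice ranged from 18.4 to 18.9 CPM. Atg16l2 in iBET IC was lowest in mouse D, at 5.44 CPM, where the other mice ranged from 7.54 to 8.03 CPM. Gabarapl2 in iBET IC was highest in mouse D, at 46.3 CPM, where the other mice ranged from 39.2 to 39.8 CPM. Mice B and D each accounted for 3 of the 7 and mouse A for 1, and the libraries were spread over all 4 groups.

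The effect of IC on Atg14 had opposite signs with and without iBET. IC libraries were lower than Ova libraries in 5 of 5 mice with DMSO (-0.10 on the log2 scale) and higher in 5 of 5 mice with iBET (0.17). The difference between both effects was 0.27, which did not pass edgeR's interaction test (adjusted p = 1, and 0.0765 with the mouse as a block).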

How the results depend on the processing

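The 22 rises and 5 falls with iBET with Ova stayed within 1.5 times of these counts under every alternative, and so did the 22 rises with IC. The 6 falls with IC numbered 3 in mice A and B only. The counts of IC against Ova moved more. With DMSO, the 5 rises became 3 with library size only, 2 in mice A and B only, and 3 to 5 with 1 mouse left out, and the 7 falls became 3 without a filter, 0 in mice A and B only, 4 in mice C, D and E only, and 2 to 5 with 1 mouse left out. With iBET, the 7 rises became 3 with library size only, 4 without a filter, 2 in mice A and B only, 4 in mice C, D and E only, and 3 to 6 with 1 mouse left out, and the 2 falls became 5, 1, 1 and 0 under the same alternatives, and 0 to 2 with 1 mouse left out. The runs on part of the mice held fewer samples, and otherwise the cause of these moves was not tested. With the mouse as a replicate block 24 members rose and 5 fell with iBET with Ova, and among the 40 members the paired fit changed no call beyond those given beside the results. For the lists of the wider pathway its counts are given with the lists. No alternative called a member in the interaction.

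Of the 27 calls with iBET with Ova, 17 passed under all 15 alternatives, as did 22 of 28 with IC, and 2 of 12 and 2 of 9 in DMSO and iBET cells given IC rather than Ova. The only one of these calls to change sign was Map1lc3a with Ova, at -0.0019 in mice A and B only. The other changes of sign were in values that did not pass. For iBET against DMSO with Ova, Calcoco1 was 0.0088 without a filter, 0.061 in mice C, D and E only and -0.051 to 0.075 with 1 mouse left out, Gabarap was -0.044 with library size only, -0.11 in mice A and B only and -0.021 to 0.075 with 1 mouse left out, Gabarapl1 was 0.052 in mice C, D and E only, and Sqstm1 was 0.098 in mice C, D and E only and -0.089 to 0.033 with 1 mouse left out. For iBET against DMSO with IC, Gabarap was 0.046 with surrogate variables, 0.095 in mice A and B only and -0.065 to 0.018 with 1 mouse left out, Optn was -0.043 with library size only and -0.011 to 0.041 with 1 mouse left out, and Ulk4 was -0.092 with surrogate variables, -0.098 in mice A and B only and -0.21 to 0.24 with 1 mouse left out. For IC against Ova with DMSO, Gabarapl2 was -0.012 in mice A and B only, Map1lc3a was -0.23 in mice A and B only, and Map1lc3b was -0.044 with library size only and -0.018 in mice A and B only. For IC against Ova with iBET, Map1lc3b was -0.056 with library size only. Depth limits the genes with few counts, of which Atg4a, Ulk4 and Atg9b had the largest standard errors in every contrast.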

Other observations

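Together the 40 autophagy machinery genes took 0.312% ± 0.0130 of all counts (mean ± SD, n = 5) in DMSO Ova, 0.340% ± 0.00397 in DMSO IC, 0.345% ± 0.00867 in iBET Ova and 0.355% ± 0.00787 in iBET IC. The DMSO Ova libraries, at 0.291% to 0.323%, lay below all libraries of the other 3 groups, and the iBET Ova libraries overlapped those of the DMSO IC and iBET IC groups. Sqstm1 and Gabarap had the highest CPM of the 40 genes and so weigh most in these shares. Fewer copies of other RNAs and more copies of these cannot be told apart in such a share.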
